A study of Mus musculus with 9 samples.

Results

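Acyl-CoA thioesterases, enzymes of mitochondrial fatty acid oxidation and a kinase of pyruvate dehydrogenase were followed through 10 genes. These were the acyl-CoA thioesterases Acot1 and Acot2, the carnitine palmitoyltransferases Cpt1a and Cpt2, and the acyl-CoA dehydrogenases Acadvl, Acadl and Acadm. The others were both subunits of the mitochondrial trifunctional protein, Hadha and Hadhb, and the pyruvate dehydrogenase kinase Pdk4. All 10 were taken by symbol from the 54876 genes of the deposited table, 1 row each. The members were selected on their FPKM in all 3 media, with the results known, so the members' levels and differences are given as a description, without p-values. MIN6 cells, a mouse insulinoma line labelled C57BL/6 that stands in for pancreatic beta cells, were grown for 24 h at 0.1, 1 or 20 times the usual amount of arginine, called low, standard and high arginine here. RNA was sequenced from 3 libraries per medium, 9 in all, and the labels do not say whether these were separate cultures, and the p-values below therefore cover the spread of these libraries alone, which can be technical. MIN6 is an established tumour line, and no other cell line or primary islet is part of the comparison.

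Fatty acids enter oxidation as acyl-CoA esters. Carnitine palmitoyltransferase 1 on the outer mitochondrial membrane passes the acyl group to carnitine, a step that malonyl-CoA inhibits and that sets the rate of entry in beta cells, a translocase carries the acylcarnitine inward, and carnitine palmitoyltransferase 2 rebuilds the acyl-CoA in the matrix. Each turn of beta-oxidation then runs through an acyl-CoA dehydrogenase, a hydratase, a hydroxyacyl-CoA dehydrogenase and a thiolase, while acyl-CoA thioesterases work the other way and split acyl-CoA into free fatty acid and CoA.

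Reads in genes numbered 24835801 to 26300872 per library in low arginine, 21550637 to 24452040 in standard arginine and 23747593 to 24163731 in high arginine. Of 8 beta cell markers, 7 were abundant, and the summed level of the 8 was 82250 to 84044 FPKM in low arginine, 78473 to 88189 FPKM in the standard medium and 80191 to 83148 FPKM in high arginine (FPKM, fragments scaled for gene length and library size). That sum is mostly Ins2 and Iapp, whose libraries overlapped between low and standard arginine; Pdx1, at a mean of 373 FPKM in low arginine against 150 FPKM in the standard medium, Nkx6-1, at 190 and 66.3 FPKM, and Mafa, at 310 and 247 FPKM, were higher in low arginine without overlap, and Ins1, at 1065 and 1542 FPKM, and Chga, at 3677 and 5664 FPKM, were lower without overlap. The marker below 1 FPKM was Slc2a2, the glucose transporter of rodent beta cells, whose mean was at most 0.0235 FPKM. All 4 markers of other islet cells (Gcg, Sst, Ppy and Ttr) were present, and they differed in low arginine in both directions: their sum was 9059 to 11574 FPKM in low arginine, 6324 to 7198 FPKM in the standard medium and 6616 to 6804 FPKM in high arginine, with Sst at 9758, 5790 and 5742 FPKM on average in these media and Ttr at 296, 904 and 869 FPKM. The part of either group of markers in the results below was not tested, and in bulk RNA fewer cells of a type and less RNA per cell cannot be told apart. Adipocyte and liver markers were near 0: the 4 listed (Adipoq, Plin1, Alb, Apoa1) did not exceed 0.269 FPKM in any library. None of the 4 exocrine and duct or 6 stromal, endothelial and leukocyte markers reached 1 FPKM, and Prss1, Krt19, Cdh5 and Ptprc had 0 reads throughout.

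The sequences around the starts of the members that differed most are shown first, because the results turn on 2 neighbours of unequal level, Acot2 and Acot1, on Cpt1a, and on the Hadha and Hadhb pair, which share a start region. They are from RefSeq on GRCm38.p6, where all 10 members had a window of 300 bases, most of it upstream of the start. Capitals mark matches to CCAAT or AGGTCA on either strand. The first 3 lie at chr12:83987611-83987910, chr12:84009252-84009551 and chr19:3323051-3323350, all on the plus strand. The last is the stretch shared by the Hadha and Hadhb windows, chr5:30155003-30155230, on the plus strand, and holds 0 matches.
Acot2: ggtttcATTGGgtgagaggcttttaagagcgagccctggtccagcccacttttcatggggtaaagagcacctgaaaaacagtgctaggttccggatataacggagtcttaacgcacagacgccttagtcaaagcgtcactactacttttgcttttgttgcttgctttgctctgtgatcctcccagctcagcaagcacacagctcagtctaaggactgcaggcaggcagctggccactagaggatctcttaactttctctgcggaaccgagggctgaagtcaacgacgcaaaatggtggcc
Acot1: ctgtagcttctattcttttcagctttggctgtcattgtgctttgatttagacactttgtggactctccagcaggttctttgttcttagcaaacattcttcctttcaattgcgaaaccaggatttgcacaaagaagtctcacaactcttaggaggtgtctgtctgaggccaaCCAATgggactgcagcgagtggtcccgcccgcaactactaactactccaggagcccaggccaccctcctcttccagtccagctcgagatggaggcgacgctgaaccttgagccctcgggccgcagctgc
Cpt1a: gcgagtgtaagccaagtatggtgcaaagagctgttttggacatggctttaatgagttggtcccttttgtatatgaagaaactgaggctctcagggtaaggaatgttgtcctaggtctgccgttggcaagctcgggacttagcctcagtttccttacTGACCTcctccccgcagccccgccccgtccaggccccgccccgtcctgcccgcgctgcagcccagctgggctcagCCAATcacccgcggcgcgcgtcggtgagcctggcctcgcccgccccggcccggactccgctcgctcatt
Hadhb and Hadha overlap: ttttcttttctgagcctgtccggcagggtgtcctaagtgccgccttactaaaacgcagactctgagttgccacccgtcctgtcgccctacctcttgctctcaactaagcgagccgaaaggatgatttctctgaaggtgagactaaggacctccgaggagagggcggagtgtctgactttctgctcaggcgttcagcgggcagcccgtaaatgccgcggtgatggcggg
Both strands were searched for 6 motifs. CCAAT, present in 37.4% of the 32851 windows in the table, lay 240 bases upstream of the Acot2 start (minus strand), 75 upstream of Acot1 (plus), 15 upstream of Cpt1a (plus) and 127 upstream of Pdk4 (minus). AGGTCA, a nuclear receptor motif present in 16.3% of windows, lay 89 bases upstream of Cpt1a (minus), 244 upstream of Acadm (minus) and 82 upstream of Acadvl (plus). The windows of Cpt2, Acadl, Hadha and Hadhb held 0 matches to either. The repeat that binds PPAR receptors, AGGTCA given 2 times with an N between them (0.0396% of windows, each also a match to AGGTCA), TGATGNAA of C/EBP-ATF response elements (3.97%), the cAMP response element TGACGTCA (1.79%) and the forkhead motif GTAAACA (3.65%) had 0 matches in the 10 windows. Motifs this rare are seldom met in 10 windows, so nothing is read from their absence. A match here is a run of letters, not a site shown to be bound.

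Low arginine was set against standard arginine to ask what an arginine shortage changes. Differences are in log2(FPKM + 1), which understates those of low genes, and a gene was called at a Benjamini-Hochberg adjusted p under 0.05 in limma over the 12300 genes tested. Of the 10 members, 8 were tested, all of them at 1 FPKM or more in every library, while Acot1 and Pdk4 fell below the filter. In low arginine 4 of the 8, Acot2, Cpt1a, Hadha and Hadhb, were higher and called, 0 were lower and called, and the median difference was 0.27, beside 0.001 over all tested genes. Of all tested genes 62.2% were called in this comparison, 30.3% as higher and 31.9% as lower, and since the members were chosen with these values known nothing is read from their share.

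**Figure D1:**
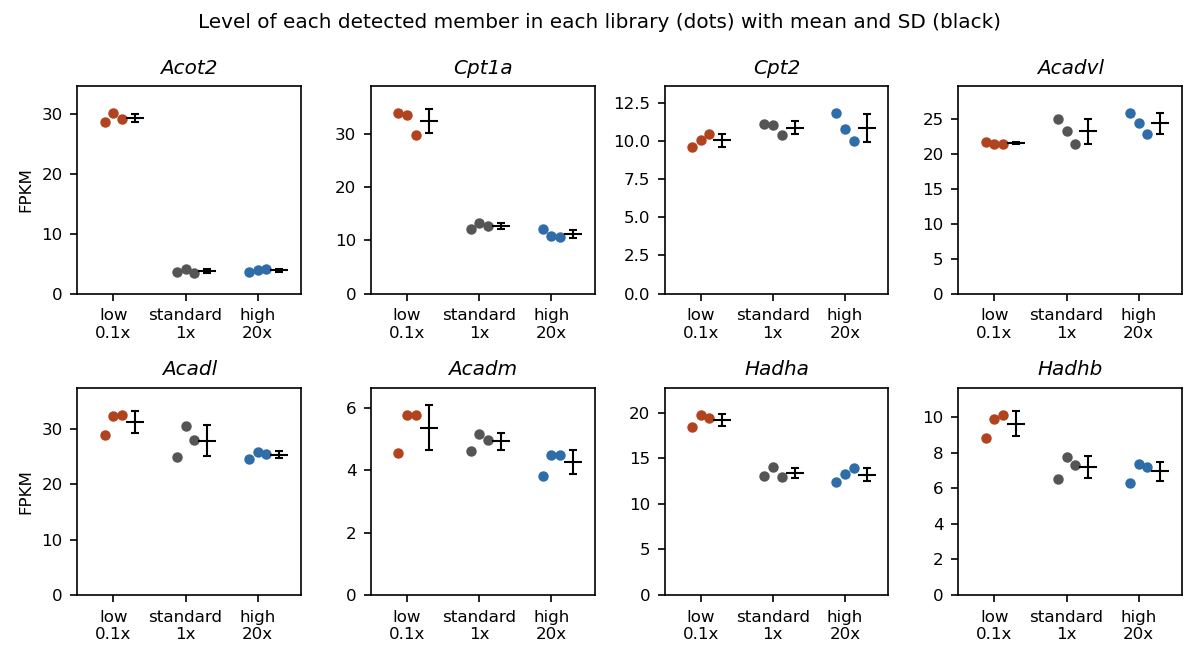
Level of the 8 members above the filter in each library, in FPKM on the vertical axis, which starts at 0 in every panel, with media from low (0.1x) to high (20x) arginine on the horizontal axis. Coloured dots are single libraries and the black marks are the mean and SD of 3 libraries. The low arginine libraries stand above the other 6 in the panels of Acot2, Cpt1a, Hadha and Hadhb, and Acot2 at 28.8 to 30.2 FPKM is the clearest case.

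Among the members Acot2 differed most between media. Acot2, the mitochondrial thioesterase of long-chain acyl-CoA (ENSMUSG00000021226, chromosome 12, 83987861 to 83993873, plus strand, GRCm38), had 28.8, 30.2 and 29.2 FPKM in low arginine, 3.62, 4.11 and 3.42 FPKM in standard arginine and 3.603, 3.94 and 4.04 FPKM in high arginine. All 3 low arginine libraries stood far above the other 6, which overlapped among themselves. The means were 29.4 ± 0.734 FPKM in low arginine and 3.72 ± 0.352 FPKM in standard arginine (SD, n = 3 each), a ratio of 7.91 and a log2 difference of 2.69 (SE 0.07). Behind them were 1661 to 1830 reads per low, 169 to 191 per standard and 184 to 213 per high arginine library. In 5 of the 12300 tested genes the log2 difference was higher than that of Acot2.

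Acot1, the cytosolic enzyme of the same family (ENSMUSG00000072949, chromosome 12, 84009490 to 84018371, plus strand), is the next member along the chromosome and was close to silent. It had 7, 2 and 1 reads per library in low arginine, 5, 2 and 1 in standard arginine and 0, 0 and 1 in high arginine, at most 0.068 FPKM. Both genes come from a cluster of near-identical copies: of the 50-base words in the Acot2 transcript, 24.5% also occur in Acot1 and 27.7% in some other gene, so reads from these stretches could be split or dropped, and the level of Acot2 is uncertain to that extent. The other genes of the cluster were low in all media. Acot3 and Acot5 had 0 reads in all 9 libraries, Acot4 had 54, 36 and 31 reads in all in low, standard and high arginine, and Acot6 averaged 0.619 ± 0.0426, 0.630 ± 0.117 and 0.602 ± 0.131 FPKM (SD, n = 3 each).

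Acot2 also took a larger part of its family's total in low arginine. Summed over the 13 Acot genes in the table, the level was 132 ± 4.0 FPKM in low arginine, 117 ± 2.71 FPKM in the standard medium and 125 ± 6.82 FPKM in high arginine. Acot2 made up 22.3 ± 0.31% of it in low, against 3.18 ± 0.23% in standard arginine, and 3.10 ± 0.09% in high arginine (SD, n = 3 each). Acot7, a cytosolic thioesterase best known in brain, made up 27.9 ± 1.00% in low arginine, 40.9 ± 2.57% in the standard medium and 38.4 ± 1.76% in high arginine, and Acot13 made up 29.7 ± 1.94%, 33.5 ± 2.47% and 38.5 ± 2.62%. These shares rest on FPKM, so they are per length.

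**Figure D2:**
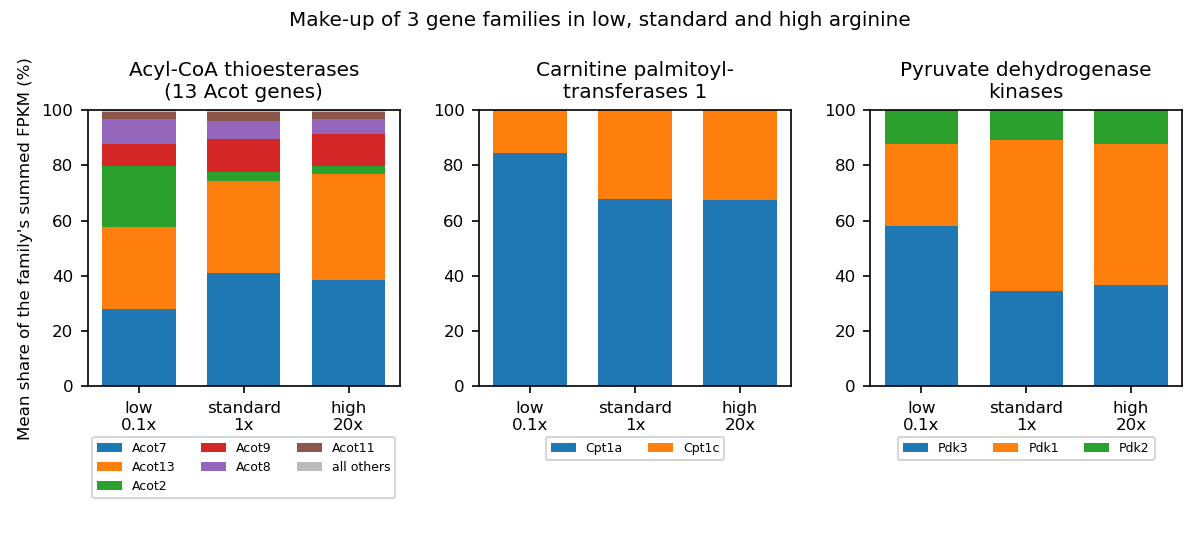
Mean share of each gene in the summed FPKM of its family, in percent, for the 13 Acot genes, the 3 Cpt1 genes and the 4 Pdk genes, with media from low (0.1x) to high (20x) arginine on the horizontal axis. Stacked colours are genes. Cpt1b and Pdk4, at or near 0, are not drawn, and the remaining Acot genes are pooled as all others. Acot2 takes 22.3% of the Acot sum in low arginine against 3.18% in standard arginine, Cpt1a 84.6% of the Cpt1 sum against 67.8%, and Pdk3 58.1% of the Pdk sum against 34.7%.

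The next members act at the mitochondrial membranes. Cpt1a, the liver-type carnitine palmitoyltransferase 1 (ENSMUSG00000024900, chromosome 19, 3323301 to 3385732, plus strand), had 33.9, 33.6 and 29.7 FPKM in low arginine, 12.1, 13.3 and 12.7 FPKM in standard arginine and 12.05, 10.8 and 10.7 FPKM in high arginine. The low arginine libraries stood above all others, and the high arginine libraries lay just under the standard ones without overlap. Its mean was 32.4 ± 2.32 FPKM in low arginine and 12.7 ± 0.585 FPKM in standard arginine (SD, n = 3 each), a ratio of 2.55 and a log2 difference of 1.28 (SE 0.07), with 100 tested genes higher in this measure. Cpt1a shared 0 of its 50-base words with another gene. Within the Cpt1 family it made up 84.6 ± 0.74% of the summed level in low arginine, 67.8 ± 1.8% in the standard medium and 67.6 ± 0.60% in high arginine, and Cpt1c, the form of the endoplasmic reticulum that is most abundant in brain, made up nearly all of the remainder.

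Cpt2, the partner of Cpt1a on the inner membrane (ENSMUSG00000028607, chromosome 4, 107903981 to 107923610, minus strand), had 9.62, 10.04 and 10.5 FPKM in low arginine, 11.1, 11.1 and 10.4 FPKM in standard arginine and 11.8, 10.7 and 9.99 FPKM in high arginine. The 3 groups overlapped, and the log2 difference was -0.10 (SE 0.07) between low and standard arginine, not called; in TPM, a scale that sums to the same total in every library, it was 0.01. Slc25a20, the translocase that works between both transferases and a member of the carnitine shuttle list, rose with low arginine: it had 11.4, 11.3 and 10.9 FPKM in low arginine, 5.17, 5.96 and 5.32 FPKM in standard arginine and 4.86, 4.94 and 5.44 FPKM in high arginine. Its log2 change was 0.91 (SE 0.06, limma adjusted p = 7.9e-07), with all 3 low arginine libraries above the standard ones.

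The acyl-CoA dehydrogenases, which start each turn of the spiral and differ in the chain length they prefer, were not called between low and standard arginine, though each was called in at least 1 alternative. Acadvl, for very long chains (ENSMUSG00000018574, chromosome 11, 70010183 to 70015411, minus strand), had 21.8, 21.5 and 21.5 FPKM in low arginine, 25.1, 23.3 and 21.5 FPKM in standard arginine and 25.9, 24.4 and 22.9 FPKM in high arginine. The low and standard groups overlapped by 1 library, and the log2 difference was -0.10 (SE 0.07), or 0.02 in TPM and, called, -0.16 with array weights. Acadvl is uncertain, since 2119 of its bases overlap Dvl2 on the other strand, which averaged 10.8, 8.75 and 9.24 FPKM in low, standard and high arginine, and the sources used here do not name the strand option of the read counting.

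Acadl, for long chains (ENSMUSG00000026003, chromosome 1, 66830839 to 66863277, minus strand), had 28.9, 32.3 and 32.6 FPKM in low arginine, 24.97, 30.6 and 28.1 FPKM in standard arginine and 24.6, 25.9 and 25.6 FPKM in high arginine. Low and standard arginine overlapped, with a log2 difference of 0.16 (SE 0.08) that was not called. It was called without low arginine replicate 1, at 0.22, without standard arginine replicate 2, at 0.23, in TPM, at 0.29, with quantile normalization, at 0.26, and with array weights, at 0.24. Acadm, for medium chains (ENSMUSG00000062908, chromosome 3, 153922357 to 153944632, minus strand), had 4.55, 5.79 and 5.79 FPKM in low arginine, 4.64, 5.18 and 4.99 FPKM in standard arginine and 3.84, 4.49 and 4.51 FPKM in high arginine. Replicate 1 of the low arginine group lay below all 3 standard libraries and the other two lay above them, and the log2 difference was 0.10 (SE 0.09), not called, or 0.18 and called with array weights.

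The trifunctional protein carries the remaining steps for long chains. Hadha, its alpha subunit with the hydratase and hydroxyacyl-CoA dehydrogenase activities (ENSMUSG00000025745, chromosome 5, 30118304 to 30155162, minus strand), had 18.5, 19.8 and 19.4 FPKM in low arginine, 13.1, 14.1 and 13.01 FPKM in standard arginine and 12.4, 13.3 and 13.9 FPKM in high arginine. The low arginine libraries lay above all others, at a mean of 19.2 ± 0.675 FPKM against 13.4 ± 0.586 FPKM in standard arginine (SD, n = 3 each), a ratio of 1.44 and a log2 difference of 0.49 (SE 0.06). Hadhb, the beta subunit with the thiolase activity (ENSMUSG00000059447, chromosome 5, 30155248 to 30184593, plus strand), had 8.84, 9.92 and 10.2 FPKM in low arginine, 6.55, 7.76 and 7.32 FPKM in standard arginine and 6.32, 7.35 and 7.18 FPKM in high arginine. Its groups were ordered like those of Hadha, with means of 9.64 ± 0.699 FPKM in low arginine and 7.21 ± 0.612 FPKM in standard arginine, a ratio of 1.34 and a log2 difference of 0.37 (SE 0.08). Hadhb is uncertain, because 62.4% of the 50-base words of its transcript also occur in another gene; of the copies, Gm13910, which holds 61.5% of them, averaged 11.9 FPKM in low arginine, 10.8 FPKM in the standard medium and 11.5 FPKM in high arginine.

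The genes of both subunits stand back to back. Their RefSeq start sites lie at 30154980 for Hadha and 30155253 for Hadhb on chromosome 5, with 272 bases between them. The windows around these starts share the 228 bases printed above. The deposited coordinates differ, with the Hadha gene starting at 30155162 and Hadhb at 30155248. By them, part of the printed stretch lies inside Hadha. Hadha shared 0 of its 50-base words with another gene. Levels of these genes are set against each other only with care, since the FPKM divides by 8730 bases for Hadha and 6595 for Hadhb, while the transcripts examined here are 4017 and 2048 bases long.

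Pdk4, the kinase that switches off pyruvate dehydrogenase when fatty acids are burned in muscle and heart (ENSMUSG00000019577, chromosome 6, 5483351 to 5496309, minus strand), had 0 reads in all 9 libraries. Counting error alone allows up to 3 reads per library, which is 0.0303 to 0.0412 FPKM. The other kinases of the family were expressed, and their sum was 13.1 ± 0.531 FPKM in low arginine, 28.1 ± 3.04 FPKM in the standard medium and 23.9 ± 1.57 FPKM in high arginine (SD, n = 3 each). Pdk1 fell to 3.88 ± 0.0653 FPKM in low arginine, against 15.4 ± 2.01 FPKM in standard arginine, a log2 change of -1.74 (SE 0.09, limma adjusted p = 8.7e-08). Pdk3 (log2 change -0.31, adjusted p = 0.0018) made up 58.1 ± 1.48% of the sum in low arginine, 34.7 ± 1.48% in the standard medium and 36.5 ± 1.71% in high arginine.

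By level in low arginine the order was Cpt1a, Acadl, Acot2, Acadvl, Hadha, Cpt2, Hadhb and Acadm, from 32.4 to 5.38 FPKM. The first 3 overlapped between libraries, as did Cpt2 and Hadhb. In standard arginine the order was Acadl, Acadvl, Hadha, Cpt1a, Cpt2, Hadhb, Acadm and Acot2, from 27.9 to 3.72 FPKM, with overlap between Acadl and Acadvl and between Hadha and Cpt1a. By FPKM Acot2 was thus the lowest of the 8 in standard arginine and among the top 3 in low arginine. This order depends on the gene length that FPKM divides by. For Hadha and Hadhb it was 8730 and 6595 bases, against 4017 and 2048 bases in the transcripts examined. For Acot2 gene and transcript had 2196 bases, so its place against Hadha and Hadhb is uncertain. In high arginine the order was the same as in standard arginine, from 25.4 to 3.86 FPKM, and the neighbours Acadl and Acadvl, Cpt1a and Cpt2, and Acadm and Acot2 overlapped.

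High arginine was set against standard arginine to ask what an excess changes. Of the 8 tested members 0 were called, and 0 were called with voom weights on the rebuilt reads or with array weights. At an unadjusted p under 0.05 there was 1, beside 1762 of the 12300 tested genes. The median log2 difference was -0.03, beside 0.014 over all tested genes. Of all tested genes 0.309% were called, 0.138% as higher and 0.171% as lower. The differences ran from -0.17 for Cpt1a (SE 0.07) and Acadm (SE 0.09) to 0.07 for Acadvl (SE 0.07), and Acot2 stood at 0.04 (SE 0.07). Cpt1a averaged 11.2 ± 0.750 FPKM in high and 12.7 ± 0.585 FPKM in standard arginine, and Acadm 4.28 ± 0.383 FPKM in high and 4.93 ± 0.274 FPKM in standard arginine (SD, n = 3 each). In both genes all 3 high arginine libraries lay below all 3 standard ones, and in the other tested members the groups overlapped. The share of all tested genes separated in this way was not counted, so nothing is read from this order.

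**Figure D3:**
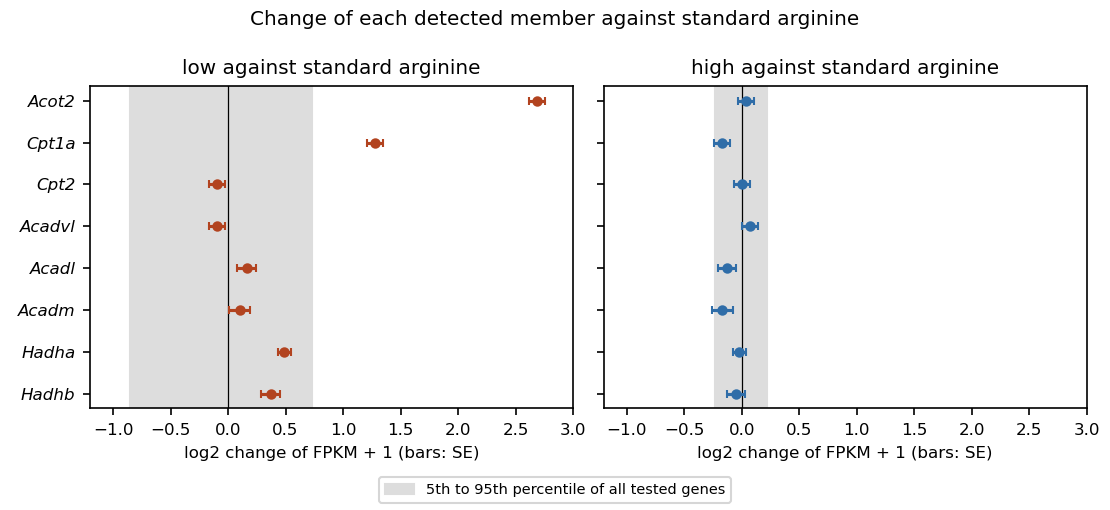
Log2 difference of FPKM + 1 for the 8 members above the filter, low against standard arginine on the left and high against standard arginine on the right, both on the same horizontal axis. Points are limma estimates, bars are their SE, and the grey band spans the 5th to 95th percentile of all 12300 tested genes, -0.85 to 0.73 on the left and -0.23 to 0.22 on the right. Acot2 at 2.69 and Cpt1a at 1.28 lie outside the band on the left, and all 8 points lie inside it on the right.

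High and low arginine differ the most in dose; the members' values in this contrast are again those they were selected on, and nothing is read from the count. Here 6 of the 8 tested members were lower in high than in low arginine and called, and 1, Acadvl, was higher and called, beside 61.5% of all tested genes called, 32.3% as higher and 29.2% as lower. The log2 difference was -2.65 for Acot2 (SE 0.07), -1.45 for Cpt1a (SE 0.07), -0.51 for Hadha (SE 0.06), -0.42 for Hadhb (SE 0.08), -0.29 for Acadl (SE 0.08) and -0.27 for Acadm (SE 0.09). In these genes the high arginine libraries lay below all low arginine ones. For Acadm the gap was only between 4.51 FPKM in high and 4.55 FPKM in low arginine. How many of all tested genes have such an order was not counted. The call of Acadm ended without low arginine replicate 2 or 3, at -0.22 in both cases, and without high arginine replicate 1, at -0.21. Acadvl, at 0.17 (SE 0.07), lost its call without any 1 of low arginine replicates 1, 2 and 3, standard arginine replicate 2 and high arginine replicates 1 and 2, at 0.13 to 0.17, and in TPM, at 0.05. Cpt2 stood at 0.10 (SE 0.07), or -0.02 in TPM, and was not called.

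The genes with the most similar profiles were sought among the 6992 genes with a full symbol of 7386 with a mean of at least 5 FPKM, by the root mean square difference over the 9 libraries of log2(FPKM + 1) after subtracting the standard arginine mean. Acot2 had few neighbours: Atf3, a stress-induced transcription factor, was nearest at 0.137, followed by the non-coding RNAs Snhg12 at 0.164 and Zfas1 at 0.177, and 0 genes lay within 0.1. For Cpt1a the nearest were Slc6a9, a glycine transporter, at 0.068, Epb41l4aos at 0.08 and Slc9a9, a sodium and proton exchanger, at 0.093, and 5 genes lay within 0.1. The weaker profiles were common, with 303 genes within 0.1 of Hadha and 171 within 0.1 of Hadhb, where Dnajc15 at 0.045 and Rwdd4a at 0.037 were nearest. Within 0.1 lay 110 genes for Acadl (nearest Tomm20), 53 for Acadm, 620 for Cpt2 (nearest Rfng) and 621 for Acadvl (nearest Fzr1). The profile was measured on the same values that chose the members, so likeness is a description.

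Around the members, 137 other genes of fatty acid handling were listed in 9 groups, and 95 of them were tested. In low against standard arginine 26 rose and 36 fell, with a median log2 change of -0.04; 65.3% of these 95 were called, beside 62.2% of all tested genes. On the TPM scale there were 37 rises and 27 falls; over all tested genes that scale has a median of 0.115 against 0.001, with 61.6% of calls higher against 48.7%. In high against standard arginine 0 were called by limma. At an unadjusted p under 0.05 there were 16 of the 95, beside 1762 of the 12300 tested genes. With voom weights 0 were called, and with array weights 3 were called as higher and 14 as lower. In high against low arginine 32 were higher and 29 lower, or 25 and 39 in TPM. Of all tested genes 32.3% were higher and 29.2% lower there. Of the calls in the pathway groups 52.5% were higher, or 39.1% in TPM, beside 52.5% and 39.5% over all tested genes.

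**Figure D4:**
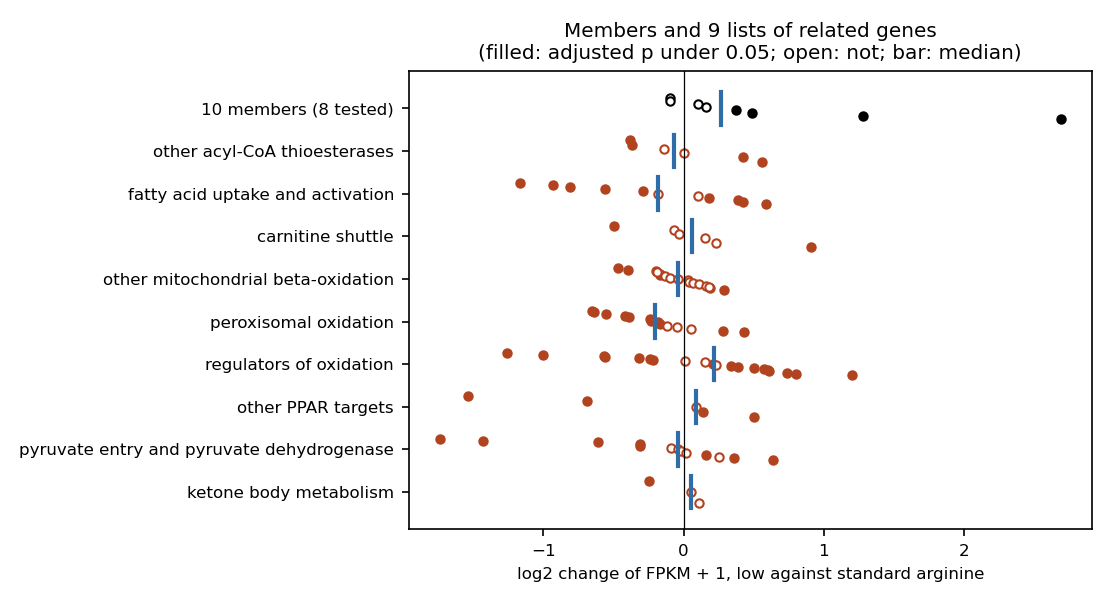
Log2 change of FPKM + 1 in low against standard arginine for the tested genes of the 9 pathway groups and for the members. Filled points are genes at an adjusted p under 0.05, open points are not, and the blue bars are medians. The members Acot2 and Cpt1a stand apart at the right at 2.69 and 1.28, and the groups hold genes on both sides of 0.

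Among 6 other tested thioesterases 2 rose and 2 fell, with a median log2 change of -0.07; changes in the rest of the text are on the same scale. Acot8, the peroxisomal thioesterase, averaged 11.9 ± 1.12 FPKM in low arginine and 7.77 ± 0.774 FPKM in standard arginine, a log2 change of 0.56 (SE 0.09, limma adjusted p = 0.00021), though it overlaps Snx21 on the other strand and is uncertain. Them4 rose by 0.42 (adjusted p = 0.0011), while Acot7 fell by 0.37 (adjusted p = 0.00067) and Acot9, another mitochondrial thioesterase, fell by 0.38 (adjusted p = 0.0012). Of 6 tested genes of the carnitine shuttle, Slc25a20 rose and Slc22a4, a transporter of the cell membrane, fell by 0.50 (adjusted p = 0.0024). Of 11 tested genes of fatty acid uptake and activation 4 rose and 5 fell, with a median of -0.18. The 4 with the smallest p all fell: Fabp5, a fatty acid binding protein, by 1.17 (adjusted p = 1.1e-06), Acsl5, an acyl-CoA synthetase, by 0.81 (adjusted p = 1e-05), Acsf2 by 0.93 (adjusted p = 2.6e-05) and the fatty acid transporter Slc27a4 by 0.56 (adjusted p = 9.5e-05). Acsl5 overlaps Zdhhc6 on the other strand and is uncertain.

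The remaining enzymes of mitochondrial oxidation had no direction that held across scales. Of 17 other tested genes of mitochondrial beta-oxidation 2 rose and 4 fell, and 11 were not called, with a median log2 change of -0.04; in TPM 6 rose and 2 fell. Acaa2, a mitochondrial thiolase, fell by 0.47 (limma adjusted p = 0.00025), Acads, the short-chain dehydrogenase, fell by 0.40 (adjusted p = 0.0029), and Ivd, of leucine breakdown, fell by 0.17 (adjusted p = 0.011), or 0.05 lower and not called in TPM. Etfa, a subunit of the flavoprotein that takes electrons from the dehydrogenases, averaged 69.0 ± 4.85 FPKM in low arginine and 56.3 ± 4.95 FPKM in standard arginine, a change of 0.29 (adjusted p = 0.013) whose call ended without low arginine replicate 3, at 0.24, or standard arginine replicate 1, at 0.23. Of 14 tested peroxisomal genes 2 rose and 9 fell, with a median of -0.20, or 2 and 5 in TPM. Phyh fell by 0.65 (adjusted p = 5.7e-05), Pecr by 0.64 (adjusted p = 1.1e-05) and Acaa1a, a peroxisomal thiolase, by 0.55 (adjusted p = 3.2e-05). Acaa1a overlaps Myd88 on the other strand and is uncertain. Of 3 tested genes of ketone body metabolism Bdh1 fell by 0.25 (adjusted p = 0.0088), a call that ended in TPM at -0.15, where another gene of the 3 was called as higher.

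Regulators moved in both directions. Of 20 tested, 10 rose and 7 fell, with a median log2 change of 0.22. Sirt1, a deacetylase, averaged 7.10 ± 0.199 FPKM in low arginine and 2.55 ± 0.470 FPKM in standard arginine, a log2 change of 1.20 (SE 0.10, limma adjusted p = 2.1e-06). Prkab1, a subunit of the AMP-activated kinase, rose by 0.80 (adjusted p = 1.3e-06) and the nuclear receptor Esrrg by 0.74 (adjusted p = 1e-05). Other subunits of that kinase went both ways. Prkaa1 rose by 0.34 (adjusted p = 0.0017) and Prkab2 by 0.50 (adjusted p = 0.00084). Prkag1 fell by 0.57 (adjusted p = 0.0004) and Prkag2 by 0.24 (adjusted p = 0.0051), and Prkaa2 was not called. Esrra, related to Esrrg, fell by 0.56 (adjusted p = 0.00044), though it overlaps Trmt112 on the other strand and is uncertain. Lpin1, a phosphatidate phosphatase that also acts as a coactivator of PPAR-alpha in liver, fell by 1.26 (adjusted p = 4.3e-07). Ppara itself, the receptor that drives Cpt1a, Acot1 and Pdk4 in liver, was at most 0.0224 FPKM in any library, and Ppargc1a stayed below the filter at 0.454 to 0.897 FPKM. Of 16 other listed PPAR targets only 5 were tested, of which 2 rose and 2 fell. Ucp2, an inner membrane carrier, fell by 1.54 (adjusted p = 3.2e-07), Creb3l3 fell by 0.69 (adjusted p = 0.00011), and the lipid droplet protein Plin2 rose by 0.50 (adjusted p = 9.7e-05). Vldlr rose by 0.14 (adjusted p = 0.048), and this call ended without any 1 library other than standard arginine replicate 3, at 0.11 to 0.16.

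Of 13 tested genes of pyruvate entry and the pyruvate dehydrogenase complex, where Pdk4 would act, 3 rose and 5 fell, with a median log2 change of -0.04, or 5 and 4 in TPM. Besides Pdk1, the phosphatase Pdp2, which works against the kinases, fell to 1.36 ± 0.0511 FPKM in low arginine, against 5.36 ± 0.339 FPKM in standard arginine (log2 change -1.43, SE 0.06, limma adjusted p = 3.6e-08). Pdk2 fell by 0.61 (adjusted p = 0.00023). Dld, the dihydrolipoyl dehydrogenase subunit, rose by 0.64 (adjusted p = 9.6e-05), averaging 40.9 ± 1.39 FPKM in low arginine and 25.9 ± 2.74 FPKM in standard arginine.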

How the data were processed

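Per the labels' protocols, the 9 libraries were built from total RNA with a kit that keeps strand. The authors deposited FPKM per gene with gene lengths, per the file headers; CASAVA 1.8, HISAT2 2.0.5 and featureCounts 1.5.0-p3 are named in the submitters' processing notes. Those notes name build mm9, but 98.33% of the 54409 IDs also found in GENCODE M21 have the GRCm38 positions, so GRCm38 is used. FPKM times length moved in whole reads in 100% of values (tolerance 0.01), which gave each library's reads. The library size behind the FPKM was 1.0483 to 1.0767 times these in low, 0.9621 to 1.016 in standard and 0.969 to 0.9943 in high arginine. The deposited values were thus already scaled between libraries. All low arginine factors lay above the others, which lowers FPKM there relative to scaling by these reads alone.

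Genes at 1 FPKM or more in at least 3 libraries were tested, 12300 in all, with limma 3.58.1 in R 4.3.3 on log2(FPKM + 1), with 1 fit over all libraries, group as the only term, a variance trend and two-sided p-values. The procedure was run on simulated counts, drawn independently for each library with a single fixed spread and no effect of replicate number. That run therefore does not measure the rate of false calls in these data. Members and lists were chosen with earlier results of these data known. All members were named. From each other list up to 4 called genes with the smallest p in low against standard arginine were named. The Acot cluster, Ppara, Ppargc1a and 3 nearest profiles per member were added. Dvl2, Snx21, Zdhhc6, Myd88, Gm13910, Slc2a2, Cpt1c, Acot13 and Pdk3 were named after their values were seen. So were Ppard, Pparg, Esrra, Trmt112 and the subunits of the AMP-activated kinase other than Prkab1. Some genes the rule names are not reported. Replicate pairs differed beyond sampling noise (chi-square per degree of freedom 2.59 to 12.6). Columns of per-sample values left unused numbered 0. Alternatives, 20 in all, covered pseudocount, filter, scaling (TPM, quantile), samples in the fit, variance trend, voom and array weights, a replicate block, a 2-fold threshold and leaving out each library. Shared words are identical 50-base stretches between annotated transcripts.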

Additional observations from a re-analysis of the deposited data

How the results depend on the processing

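Of the members' differences under the 20 alternatives 448 kept their side of the threshold, 8 gained a call and 21 lost one; for the named pathway genes these numbers were 1753, 18 and 65. None of the called changes turned its direction in these settings, and the difference of Acot2 between low and standard arginine ran from 2.65 to 2.99 and that of Cpt1a from 1.25 to 1.45. For members higher in high than in low arginine the count was 0 with no filter, in TPM, with quantile normalization, with no variance trend and at a 2-fold threshold, and 0 to 1 with 1 library left out. The counts of members called without 1 library were 4 to 5 higher and 0 lower in low against standard arginine, 0 in the contrast of high with standard, and 5 to 6 lower in high against low arginine. The shares of all tested genes called without 1 library are not given, so nothing is read from these counts. With array weights, where 67.2% of all tested genes were called in low against standard arginine, 1 member was lower there (Acadvl, -0.16) and 6 were higher, Acadl at 0.24 and Acadm at 0.18 among them. At a 2-fold threshold 2 members were higher in low against standard arginine, beside 1.92% of all tested genes, and 2 lower in high against low arginine, beside 1.9%. Of the 95 tested pathway genes 1 was higher and 6 lower in low against standard arginine. Over all tested genes these shares were 1.92% and 3.28%. In high against low arginine 5 pathway genes were higher and 2 lower, beside 3.41% and 1.9% of all tested genes. With a mean of at least 5 FPKM, where fewer genes are tested, 14 pathway genes were higher in low against standard arginine and 13 lower in high against low arginine. In high against standard arginine 1 pathway gene was lower with a pseudocount of 0.1, in TPM and with no variance trend, and 3 were higher and 14 lower with array weights, which called 10.8% of all tested genes there; the cause was not tested.

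Without 1 library, 22 to 28 pathway genes were higher and 32 to 37 lower in low against standard arginine, 0 in the contrast of high with standard, and 27 to 34 higher and 26 to 30 lower in high against low arginine. The replicate numbers were not taken as pairs: same-numbered libraries correlated at -0.04 to 0.24, over 0.1 in 6 of 9 pairs, and 8 of 9 libraries correlated best with their own number, a hint from the data only. With the replicate block 5 members were higher in low against standard arginine, Acadl among them at 0.16. In high against standard arginine 0 were called, and 1 was higher and 6 lower in high against low arginine. The shares of all tested genes called with the block or without 1 library are not given. Nothing is read from the counts in those settings. Depth limits Acot1, with at most 7 reads in a library, and Pdk4, with 0, and no difference is given for either.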
